A study of Mus musculus with 171 samples.

Results

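Ribosome biogenesis and nucleolar genes were followed through 6 groups of cells of the mouse blastocyst, above all from the inner cell mass (ICM) at E3.5 to the epiblast (EPI) and primitive endoderm (PrE) at E3.75. The group held 35 genes, chosen by symbol, and all 35 were among the 49671 gene rows of the count table. Single cells were profiled by RNA sequencing, 171 in all, from 17 embryos that were either Stat3 +/+ (WT) or Stat3 -/- (MUT). There were 64 WT and 55 MUT ICM cells from 5 embryos each. At E3.75 there were 19 EPI and 10 PrE cells from 3 WT embryos, and 9 EPI and 14 PrE cells from 4 MUT embryos. The stage was taken from the sample titles, since the source label names E3.5 for all cells. Nothing besides genotype, stage and lineage is given for these embryos. The labels do not say how the Stat3 alleles were made or how EPI and PrE cells were told apart. Counts were summed per embryo and lineage, and the embryo was the replicate. Levels are CPM, counts scaled to a total of 1000000, after TMM scaling, in which each sum is rescaled so that most genes do not differ. CPM are shares of a sum, so less RNA of a gene and more RNA of others cannot be told apart.

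Ribosomes are made in the nucleolus. RNA polymerase I transcribes a long precursor rRNA there, small nucleolar ribonucleoprotein particles (snoRNPs) guide its chemical modification, and large sets of assembly factors cut and fold it into the small and the large ribosomal subunit. Many of the genes are known MYC targets, and they are highly active in fast-growing cells of the early embryo.

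The genotype labels were first set against Stat3 itself. Stat3 ran from 43.9 to 104 CPM in WT ICM and from 0.13 to 12.4 in MUT ICM, from 84.5 to 161 in WT EPI and from 0.03 to 26.4 in MUT EPI, and from 24.3 to 136 in WT PrE and from 9.82 to 21.4 in MUT PrE, with no overlap within a lineage. Lineage markers followed the labels at E3.75: 10 PrE markers summed to 1201 to 3947 CPM in PrE and 48.6 to 291 in EPI, and 9 EPI markers to 8715 to 10506 CPM in EPI and 2052 to 5772 in PrE. In the ICM the PrE markers summed to 104 to 896 CPM, except for 2297 in MUT embryo 10, which also had the lowest EPI marker sum, 1477 against 4527 to 19494 in the other ICM embryos. Markers of trophectoderm, the outer layer, summed to 4534 CPM in the PrE of WT embryo 1 and to 1295 or less in every other sum. The PrE sum of WT embryo 3 and the EPI sum of MUT embryo 2 are 1 cell each. The median cell held 5064704.5 counts in WT ICM and 3404703 in MUT ICM, against 10407966 to 11168799 in the groups at E3.75. Sample titles carry a letter of unstated meaning, D to H at E3.5 and A to C at E3.75, so letter and stage cannot be told apart. At E3.75 letter C held only WT embryos 1 and 2, and letter B only MUT embryos 1 and 2. Letter A held WT embryo 3 and MUT embryos 4 and 5. Letter and genotype thus cannot be fully told apart at E3.75 either. No sex is labelled; by Y-linked and Xist counts, 3 of 5 WT ICM, 1 of 5 MUT ICM, 1 of 3 WT E3.75 and 4 of 4 MUT E3.75 embryos were male.

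Between E3.5 and E3.75 most of the 35 genes did not move past the threshold. From WT ICM to WT EPI, 1 of 35 was called at an adjusted p under 0.05, against 0.308% of the 13972 genes tested. That gene was C1qbp, which was also the 1 member called from WT ICM to WT PrE, where 0.349% of 13190 genes were called. The same WT ICM embryos served both comparisons. In MUT no member was called from ICM to EPI (0.0682% of all genes) or from ICM to PrE (0.507% of all genes) by edgeR. DESeq2 called 5 members to WT EPI (12.1% of all genes), 3 to WT PrE (12.2%), 1 to MUT EPI (7.35%) and 1 to MUT PrE (8.23%). By limma-trend, fitted to log2 CPM averaged within an embryo so that each cell counts equally, the members called were 9 (29.0% of all genes), 5 (15.7%), 2 (1.90%) and 1 (5.23%) in the same order. At an unadjusted p under 0.05 in edgeR, 10 of 35 members (28.6%) stood beside 14.1% of all genes in WT EPI and 9 (25.7%) beside 14.8% in WT PrE. In MUT EPI 3 members (8.57%) stood beside 8.08%, and in MUT PrE 6 (17.1%) beside 9.46%. The median log2 difference of the 35 genes was -0.10 from WT ICM to EPI and -0.28 to PrE, beside -0.14 and -0.17 over all genes tested. In MUT it was 0.20 and -0.06, beside -0.06 and -0.06 over all genes. Thus 14 of 35 members lay above 0 in WT EPI, 15 in WT PrE, 24 in MUT EPI and 17 in MUT PrE. Of all genes, 45.4%, 45.1%, 47.2% and 47.8% lay above 0 in the same order. Without MUT ICM embryo 10, high in PrE markers, still 0 members were called in MUT and the medians were 0.26 to EPI and 0.11 to PrE, while the genes called to PrE went from 61 to 169 and those to EPI from 8 to 17. By limma-trend all 4 medians were positive, at 0.85 in WT EPI, 0.65 in WT PrE, 1.14 in MUT EPI and 0.77 in MUT PrE, beside 0.68, 0.56, 0.65 and 0.54 over all genes.

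**Figure D1:**
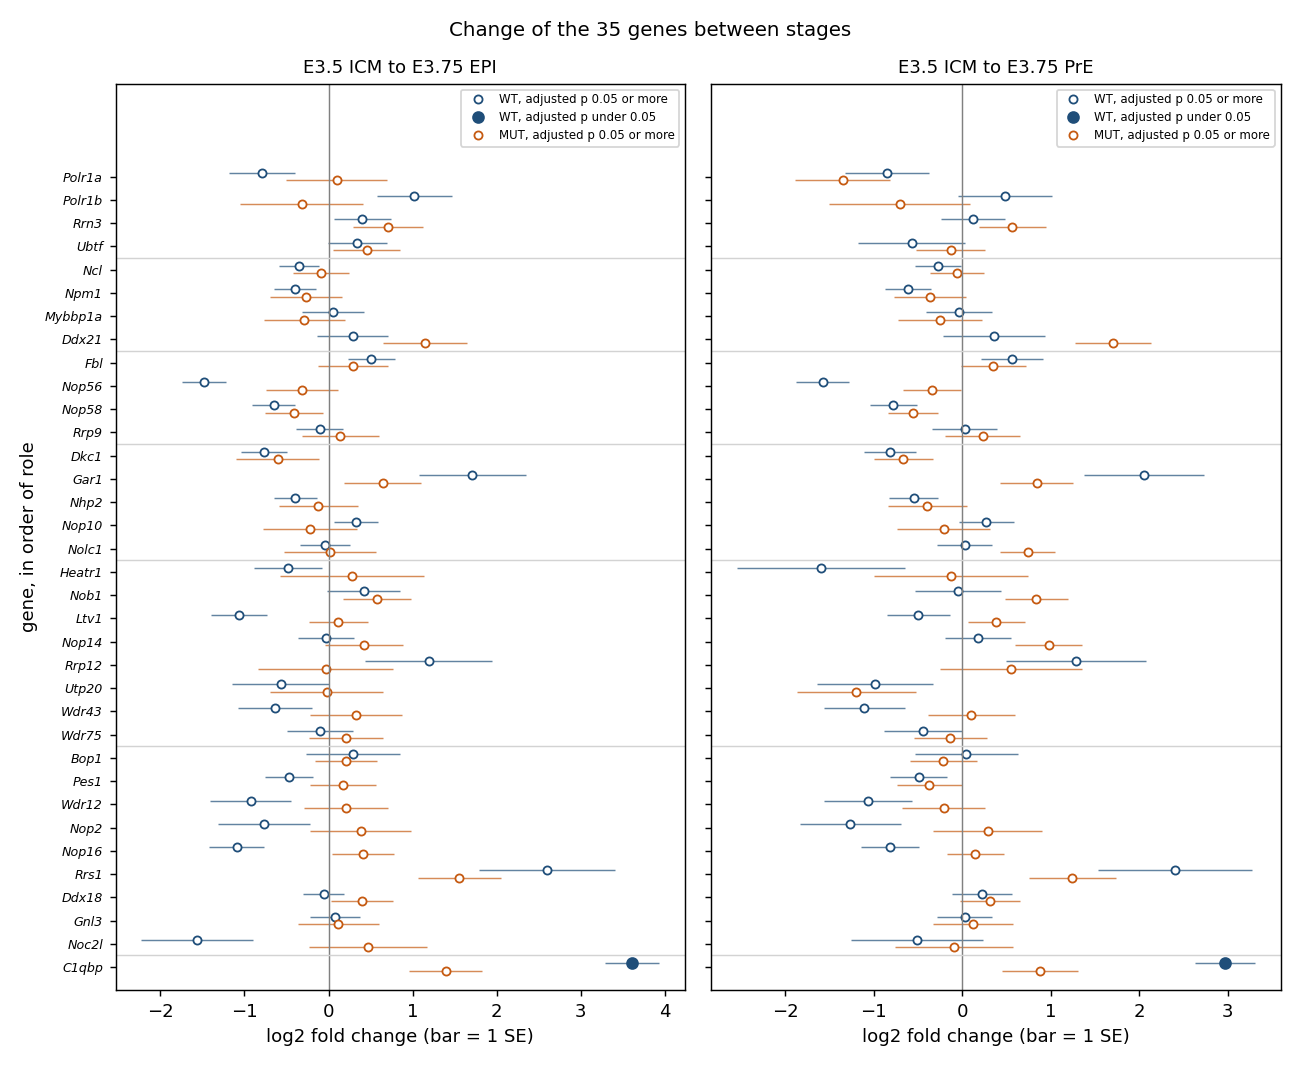
Log2 fold change from E3.5 ICM to E3.75 EPI (left) and PrE (right) of the 35 genes, in order of role, with 1 SE; WT in blue and MUT in orange, filled points at an adjusted p under 0.05. C1qbp in WT, at 3.61 and 2.97, holds the only filled points.

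The values of the embryos gave a similar count. In 8 of 35 genes every WT ICM embryo lay on 1 side of every WT EPI embryo (4 higher and 4 lower at E3.75), against 15.3% of all genes. The count was 8 from WT ICM to PrE (3 higher and 5 lower), against 14.6% of all genes. In MUT it was 3 to EPI, against 4.89%, and 6 to PrE, against 6.81%, all of them higher at E3.75. The 3 genes that stood apart on the high side in all 4 comparisons were C1qbp, Rrs1 and Gar1.

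C1qbp encodes a small acidic protein of the mitochondrial matrix, also known as p32, that is needed for translation in mitochondria and has been found in the nucleolus with rRNA processing factors. The gene lies on the minus strand at chr11:70977836-70983026 (mm10) and overlaps no other gene with counts. In WT ICM the 5 embryos gave 40.9, 108, 65.7, 47.0 and 58.9 CPM. In WT EPI the 3 embryos gave 696, 895 and 721 CPM. In WT PrE they gave 529, 481 and 467 CPM. Every WT embryo at E3.75 thus lay far above the highest at E3.5. The log2 fold change was 3.61 (SE 0.32; edgeR adjusted p = 0.00496) to EPI and 2.97 (SE 0.34; adjusted p = 0.00855) to PrE.

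In MUT ICM the 5 embryos gave 268, 312, 291, 421 and 70.3 CPM, so 4 of them lay above all WT ICM embryos, and all 5 lay below every embryo at E3.75. MUT EPI gave 808, 755, 704 and 624 CPM and MUT PrE 450.3, 491, 512 and 562 CPM, close to WT of the same lineage. The change from MUT ICM was 1.39 on the log2 scale to EPI (SE 0.44; adjusted p = 0.263) and 0.88 to PrE (SE 0.43; adjusted p = 0.578), and neither passed. With all cells thinned to 1 depth the WT changes stayed called. Without WT EPI embryo 2 the EPI call was lost (3.48, adjusted p = 0.0546), as was the PrE call without WT PrE embryo 2 (2.99, adjusted p = 0.0513) or embryo 3, the single cell (2.98, adjusted p = 0.0653). Without embryo 1, the one high in trophectoderm markers, the PrE call held (2.93, adjusted p = 0.0314).

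**Figure D2:**
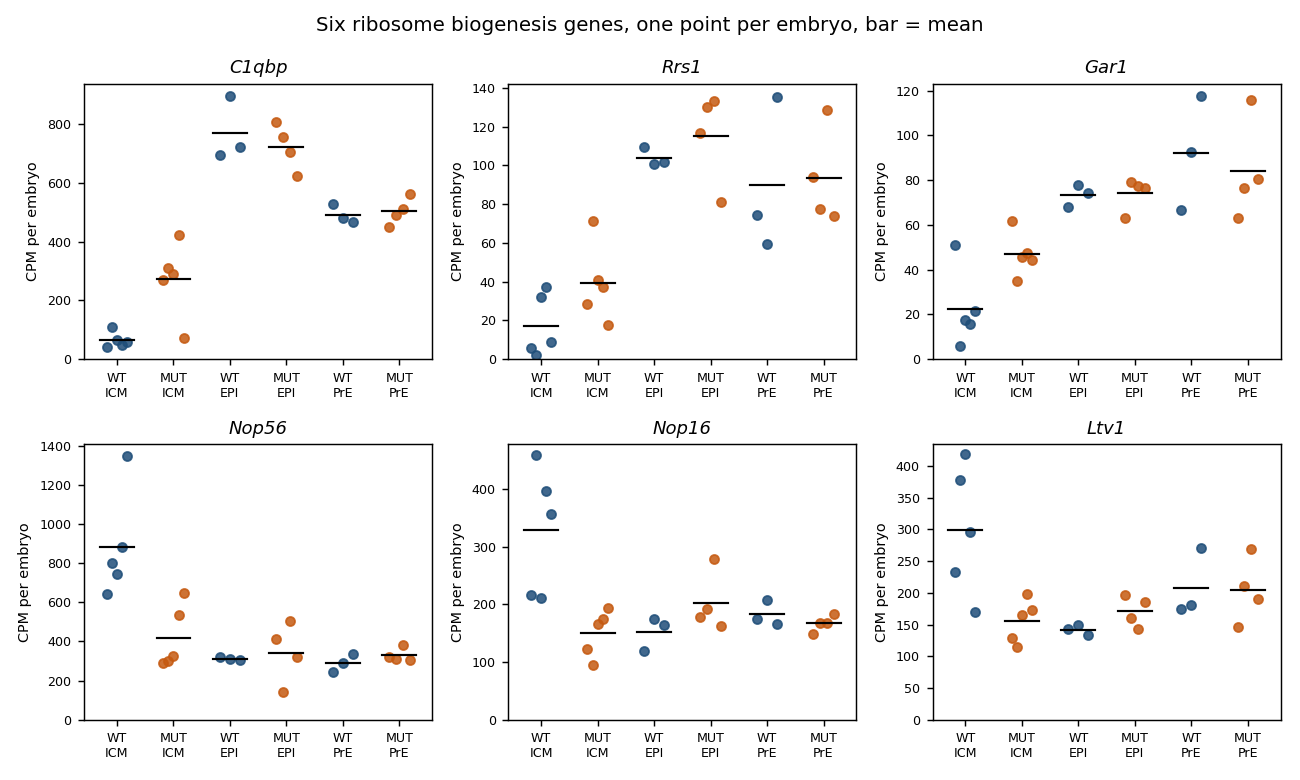
CPM per embryo (linear axes from 0) of 6 genes in the 6 groups; each point is 1 embryo and the bar is the mean. C1qbp, Rrs1 and Gar1 have their lowest mean in WT ICM, and Nop56, Nop16 and Ltv1 their highest.

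C1qbp was seen in every cell, but unevenly in WT ICM. Its median over cells, here as plain CPM, was 38.3 in the 64 WT ICM cells and 249 in the 55 MUT ICM cells. It was 873 in WT EPI, 808 in MUT EPI, 503 in WT PrE and 551 in MUT PrE. The lowest WT EPI cell held 516 CPM, and 1 of 64 WT ICM cells (1981 CPM, in embryo 16) and 6 of 55 MUT ICM cells reached it. Cells of 1 embryo are not replicates, so these are descriptions. Within each title letter at E3.5 the MUT median was above the WT median: 192 against 59.3 CPM in D, 254 against 70.5 in E, 509 against 9.70 in F, 250.3 against 6.99 in G and 218 against 27.4 in H. Letter G held only 3 WT cells from 2 embryos, and F only 6 MUT cells from 2 embryos. The same embryos recur across letters, so the letters are not separate comparisons.

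**Figure D3:**
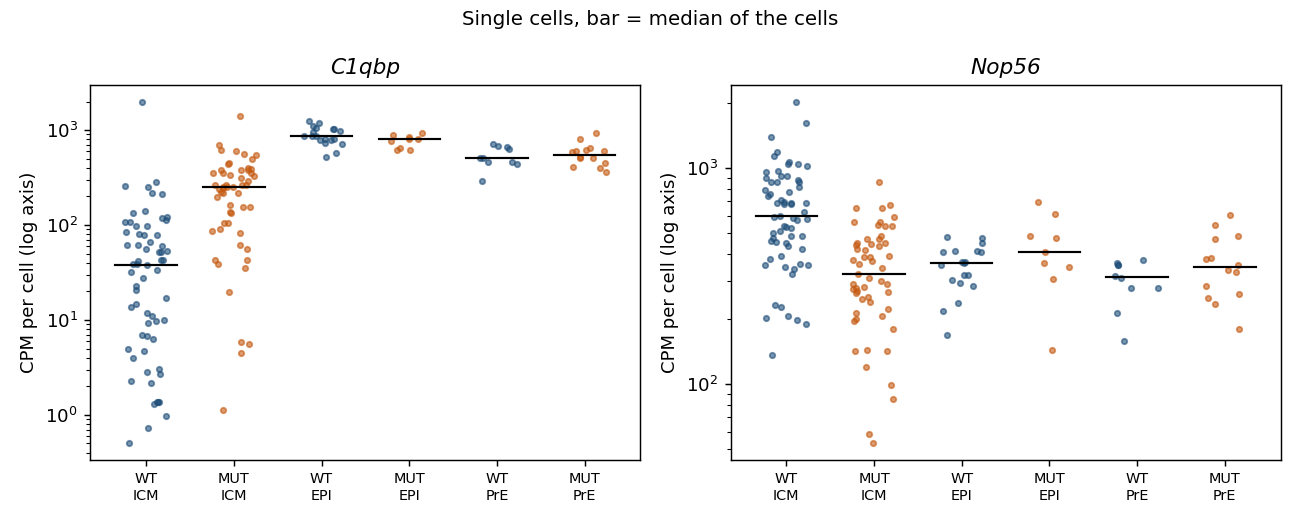
CPM per cell (log axis, no TMM scaling) of C1qbp and Nop56 in the 6 groups; each point is 1 cell and the bar is the median over cells. WT ICM cells span 0.508 to 1981 CPM for C1qbp, while all EPI cells lie between 516 and 1237.

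Promoters are shown for C1qbp, the called gene, for Nop56, the nearest to a call on the falling side, and for Pes1 and Wdr43, which hold an E-box. They come from the RefSeq promoter table (GRCm38.p6), which holds 30 of the 35 genes; Npm1, Fbl, Bop1, Rrp12 and Rrs1 have no entry. Each runs 5′ to 3′ from 250 bases before the start of transcription to base 30 after it. Capitals mark the E-box CACGTG, the site known to bind MYC, and the ETS-type motif CCGGAA, searched on both strands (TTCCGG on the other). C1qbp is at chr11:70982997-70983276 on the minus strand, Nop56 at chr2:130274162-130274441 on the plus strand, Pes1 at chr11:3963725-3964004 on the plus strand and Wdr43 at chr17:71615965-71616244 on the plus strand.
C1qbp: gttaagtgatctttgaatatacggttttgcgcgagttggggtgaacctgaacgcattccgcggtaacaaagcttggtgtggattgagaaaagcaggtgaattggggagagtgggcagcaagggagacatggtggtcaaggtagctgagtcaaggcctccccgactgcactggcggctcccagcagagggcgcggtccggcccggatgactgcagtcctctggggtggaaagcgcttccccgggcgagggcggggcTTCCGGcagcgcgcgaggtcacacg
Nop56: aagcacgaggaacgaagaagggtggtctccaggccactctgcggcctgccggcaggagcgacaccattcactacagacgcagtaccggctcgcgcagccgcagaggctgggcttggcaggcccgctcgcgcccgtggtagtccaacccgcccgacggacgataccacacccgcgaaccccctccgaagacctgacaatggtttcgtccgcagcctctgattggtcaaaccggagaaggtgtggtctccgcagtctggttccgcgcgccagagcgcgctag
Pes1: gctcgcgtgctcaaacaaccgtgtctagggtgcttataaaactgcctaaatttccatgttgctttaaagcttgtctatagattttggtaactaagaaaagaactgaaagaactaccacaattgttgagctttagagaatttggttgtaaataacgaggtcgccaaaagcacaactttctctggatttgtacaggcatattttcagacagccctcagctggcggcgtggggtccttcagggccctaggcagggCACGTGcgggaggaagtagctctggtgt
Wdr43: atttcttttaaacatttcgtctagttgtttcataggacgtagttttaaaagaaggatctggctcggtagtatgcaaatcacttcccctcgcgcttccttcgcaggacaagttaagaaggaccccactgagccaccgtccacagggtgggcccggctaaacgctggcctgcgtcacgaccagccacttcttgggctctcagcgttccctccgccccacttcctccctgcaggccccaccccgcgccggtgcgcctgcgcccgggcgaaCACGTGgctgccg

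In the table's whole windows of 300 bases, CACGTG was found in 7 of 30 members (Ltv1, Mybbp1a, Nop2, Pes1, Rrn3, Utp20 and Wdr43), 23.3%, against 8.09% of all 27025 genes of the table. In 5 of these 7 it began within the first 41 transcribed bases: at base 3 in Pes1, 18 in Wdr43, 29 in Ltv1, 38 in Utp20 and 41 in Mybbp1a. In the 250 bases before the start it was found in 2 of 30 members, 6.67%, against 6.86% of all genes. CCGGAA was found in 11 of 30 members, 36.7%, against 16.7% of all genes, and the motif of C1qbp begins at transcribed base 6. A match describes letters, not binding. None of the 7 members with an E-box was called by edgeR in any comparison. In the main edgeR fits C1qbp was the only member called, so this lack of calls cannot tell members with and without an E-box apart. DESeq2 called Ltv1 to WT EPI, Wdr43 between the lineages in WT, and Pes1 and Utp20 between them in MUT. By limma-trend Rrn3 was called to WT EPI. Mybbp1a and Nop2 were called by neither.

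For RNA polymerase I itself, 4 genes were measured: Polr1a and Polr1b, its largest subunits, Rrn3, the factor that brings it to the promoter, and Ubtf, which holds rDNA open. None was called between stages by edgeR, and their log2 differences ran from -0.79 to 1.02 to WT EPI and from -1.35 to 0.57 to MUT PrE. Limma-trend called Polr1b and Rrn3 to WT EPI. Polr1b gave 109, 71.1, 98.5, 47.3 and 32.2 CPM in WT ICM and 193, 103 and 141 in WT EPI. In MUT ICM its embryos were spread from 21.4 to 335 CPM, wider than any other group, with the highest in embryo 10. MUT EPI gave 101, 53.6, 108 and 108 CPM, WT PrE 73.2, 64.3 and 158, and MUT PrE 90.5, 24.3, 109 and 65.6. Polr1a lay between 19.3 and 207 CPM in all sums. Rrn3 lay between 104 and 361 CPM.

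Ubtf gave 147, 119.6, 258, 121 and 114 CPM in WT ICM and 136, 179, 148, 55.5 and 99.7 in MUT ICM. It gave 223, 146 and 208 in WT EPI and 187, 102 and 20.1 in WT PrE, the lowest in the single cell of embryo 3. MUT EPI gave 149, 175, 171 and 186 CPM, all above MUT PrE with 108, 106, 118 and 124.

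The abundant nucleolar proteins made up much of the summed level. Npm1 encodes nucleophosmin, a histone and ribosome chaperone of the outer nucleolus, and Ncl encodes nucleolin, which binds precursor rRNA. Npm1 held 17.9% to 46.6% of the summed CPM of the 35 genes over all sums, and Ncl 9.40% to 13.9%. Npm1 ran from 2551 to 6072 CPM in WT ICM, from 1511 (embryo 10) to 7334 in MUT ICM and from 2272 to 3552 at E3.75. Its log2 difference was -0.40 (SE 0.25; adjusted p = 0.541) to WT EPI and -0.61 (SE 0.27; adjusted p = 0.318) to WT PrE. Ncl differed by -0.35 and -0.28, with adjusted p of 0.581 and 0.696. Mybbp1a, a repressor of rDNA transcription that binds MYB, ran from 130 to 1006 CPM and differed by 0.06 to WT EPI and -0.04 to WT PrE.

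Ddx21 encodes an RNA helicase that works on rRNA and at RNA polymerase I and II genes. It gave 54.0, 116, 95.7, 38.2 and 53.3 CPM in WT ICM and 70.2, 89.2, 55.5, 22.1 and 53.8 in MUT ICM. MUT PrE gave 142, 258, 162 and 205 CPM, all above MUT ICM, while WT PrE gave 108, 138 and 26.9, overlapping WT ICM. The log2 difference from MUT ICM to PrE was 1.71 (SE 0.43; adjusted p = 0.119), the smallest p of the members in that comparison. DESeq2 (1.70, adjusted p = 0.00366) and limma-trend (2.25, adjusted p = 0.0295) called it, and over 16 alternatives its adjusted p reached 0.323. The edgeR difference was 0.36 (SE 0.57) in WT, and the difference between the genotypes, 1.38 (SE 0.71; adjusted p = 0.580), did not pass. EPI gave 80.2, 105 and 73.5 CPM in WT and 145, 72.8, 215 and 88.4 in MUT.

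Box C/D snoRNPs carry the 2′-O-methylation of rRNA. Of their 4 genes, Fbl encodes the methyltransferase fibrillarin, Nop56 and Nop58 the core scaffold and Rrp9 a protein specific to the U3 particle. Nop56 gave 643, 800.2, 744, 880.2 and 1346 CPM in WT ICM. It gave 322, 309.8 and 306 CPM in WT EPI and 243, 291 and 335 in WT PrE, with every embryo below WT ICM. The log2 difference was -1.48 (SE 0.27; adjusted p = 0.0543) to EPI and -1.58 (SE 0.30; adjusted p = 0.0589) to PrE, just outside the threshold. It was called in 6 of 15 alternatives to EPI and in 4 of 16 to PrE, DESeq2 and limma-trend among both, and limma-trend put the size at only -0.74 and -0.92. MUT ICM gave 289.7, 299, 325, 536 and 649 CPM, overlapping MUT EPI with 411, 141, 502 and 319 and MUT PrE with 321, 312, 382 and 304. The MUT differences were -0.31 and -0.34, with adjusted p of 0.940 and 0.827. Nop56 overlaps Idh3b on the opposite strand and hosts snoRNA genes, and whether the counting used strand is not stated in the labels, so part of its counts may belong to Idh3b.

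Nop58 lay in the same direction, at -0.65 (adjusted p = 0.285) to WT EPI and -0.78 (adjusted p = 0.223) to WT PrE, with 376 to 740 CPM in WT ICM and 365 to 452 at E3.75 in WT. Fbl lay the other way, at 69.7 to 102 CPM in WT ICM and 119 to 125 in WT EPI, without overlap, with a log2 difference of 0.51 (adjusted p = 0.472). Rrp9 differed by -0.11 and 0.03. The 4 genes of the box C/D group thus did not share a direction in WT.

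Box H/ACA snoRNPs carry pseudouridylation. Dkc1 encodes the pseudouridine synthase dyskerin, Gar1, Nhp2 and Nop10 its partners, and Nolc1 a chaperone of both kinds of snoRNP. Gar1 was named after its values were seen. It gave 51.1, 5.78, 17.2, 15.5 and 21.3 CPM in WT ICM, against 68.0, 77.6 and 74.2 in WT EPI and 66.6, 92.8 and 118 in WT PrE. MUT ICM gave 61.9, 34.97, 45.8, 47.5 and 44.1 CPM, against 63.2, 79.0, 77.6 and 76.7 in MUT EPI and 63.2, 76.6, 116 and 80.7 in MUT PrE. Gar1 was thus lower at E3.5 in every embryo of both genotypes, but its log2 differences in WT, 1.71 (SE 0.63; adjusted p = 0.260) and 2.06 (SE 0.68; adjusted p = 0.207), did not pass in edgeR. DESeq2 called its change to WT PrE, and limma-trend those to WT EPI and PrE.

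Nhp2 gave 482, 949.5, 571, 619 and 926 CPM in WT ICM and 798, 122, 357, 658 and 559.5 in MUT ICM. WT PrE gave 479, 488 and 461 CPM, all above MUT PrE with 331, 371, 427 and 382, a log2 difference of -0.36 (SE 0.14; adjusted p = 0.99999). In EPI it gave 546, 495 and 556 CPM in WT and 477, 372, 453 and 569 in MUT. Dkc1 is X-linked and lay lower at E3.75 in both genotypes, by -0.77 to WT EPI and -0.81 to WT PrE, with adjusted p of 0.253 and 0.240. Nop10 ran from 43.4 to 512 CPM and Nolc1 from 24.1 to 343, and neither was called by edgeR. Limma-trend called Nop10 to WT EPI.

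The 8 small subunit genes encode factors of the processome that folds the start of the precursor (Heatr1, Nop14, Utp20, Wdr43, Wdr75), export and late factors (Rrp12, Ltv1) and Nob1, the nuclease that makes the final 18S rRNA end. To WT EPI 2 of 8 lay above 0 with a median of -0.29, and to MUT EPI 6 of 8 with a median of 0.24. To PrE it was 2 of 8 in WT and 5 of 8 in MUT, with medians of -0.47 and 0.245. Nop14 gave 78.9, 120.3, 78.8, 86.7 and 164 CPM in WT ICM and 119, 77.5, 102, 103 and 40.8 in MUT ICM. MUT PrE gave 189.9, 188, 147 and 175 CPM, all above MUT ICM, with a log2 difference of 0.98 (SE 0.38; adjusted p = 0.374). WT PrE, with 122, 145 and 88.4, lay within the range of WT ICM. EPI gave 91.6, 111 and 105 CPM in WT and 78.7, 72.9, 149 and 181 in MUT.

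Nob1 gave 77.7, 133, 94.6, 68.6 and 32.3 CPM in WT ICM and 105, 78.6, 72.4, 72.2 and 56.2 in MUT ICM. MUT PrE gave 105, 169.8, 136 and 142 CPM, above all WT PrE embryos with 85.3, 92.9 and 54.9; the genotype difference was 0.81 (SE 0.28; adjusted p = 0.975). EPI gave 95.7, 136 and 91.3 CPM in WT and 131, 72.1, 148 and 113 in MUT. The genotypes stood apart in PrE, where the lowest WT value is the single cell of embryo 3, yet no gene passed in that edgeR fit. The share of all genes that stood apart in that comparison was not counted.

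Wdr43 gave 246, 301, 217, 368 and 864 CPM in WT ICM, with embryo 22 far above the others, and 206, 381, 112, 106 and 63.9 in MUT ICM. WT EPI gave 268, 246 and 245 CPM and WT PrE 199, 179 and 168. MUT EPI gave 231, 80.3, 294 and 274 CPM and MUT PrE 183, 191, 214 and 171. From WT ICM to PrE the log2 difference was -1.10 (SE 0.46; adjusted p = 0.294), with no overlap. Ltv1 was also named after its values were seen: WT ICM ran from 171 to 419 CPM, above WT EPI at 134 to 149 (-1.07, SE 0.33; adjusted p = 0.185; 0.08 by limma-trend), while MUT ICM at 115 to 199 overlapped MUT EPI at 143 to 196. Heatr1 ran from 0.651 to 134 CPM over all sums and had differences from -1.59 to 0.28, none called in the main edgeR fits. Rrp12, Utp20 and Wdr75 were not called there either, with log2 differences between -1.19 and 1.29 in the 4 comparisons. Limma-trend called Rrp12 to WT EPI and to WT PrE.

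The 9 large subunit genes include the complex of Pes1, Bop1 and Wdr12, the methyltransferase gene Nop2, the helicase gene Ddx18, Gnl3 for the nucleolar GTPase nucleostemin, and Rrs1, Nop16 and Noc2l, which encode factors of precursor particles. To WT EPI 3 of 9 lay above 0 and to MUT EPI 9 of 9, with medians of -0.47 and 0.38, beside 45.4% and 47.2% of all genes. To PrE it was 4 of 9 in WT and 5 of 9 in MUT, with medians of -0.49 and 0.12, beside 45.1% and 47.8% of all genes. Rrs1 gave 5.83, 2.23, 32.2, 37.3 and 8.62 CPM in WT ICM and 28.3, 71.2, 40.8, 37.1 and 17.8 in MUT ICM. It gave 109, 100.5 and 102 CPM in WT EPI and 116, 130.2, 133 and 80.9 in MUT EPI. PrE gave 74.6, 59.5 and 136 CPM in WT and 93.7, 77.3, 129 and 74.0 in MUT. Every embryo at E3.75 lay above every ICM embryo of its genotype. The log2 differences were 2.60 (SE 0.81; adjusted p = 0.190) and 2.41 (SE 0.87; adjusted p = 0.242) in WT, and 1.55 (SE 0.49; adjusted p = 0.268) and 1.24 (SE 0.49; adjusted p = 0.394) in MUT. DESeq2 called the change to EPI in WT (2.57, adjusted p = 0.0411) and in MUT (1.59, adjusted p = 0.0137), and limma-trend in WT (4.57, adjusted p = 0.000248) and in MUT (2.72, adjusted p = 0.0435), as well as that to WT PrE (4.23, adjusted p = 0.00197). In single WT ICM cells its median was 1.49 CPM, and 55 of 64 cells held a count.

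Nop16 gave 216, 459, 210.2, 397 and 357 CPM in WT ICM, above WT EPI with 119, 174 and 163 and WT PrE with 175, 208 and 167, though by limma-trend the difference to PrE was 0.08. MUT ICM gave 123, 95.4, 167, 175 and 194 CPM, overlapping MUT EPI with 178, 191, 279 and 163 and MUT PrE with 149, 168, 168 and 182. The log2 difference to EPI was -1.09 (SE 0.33; adjusted p = 0.171) in WT and 0.41 (SE 0.37; adjusted p = 0.890) in MUT. Over 15 alternatives the WT difference to EPI ran from -1.21 to -0.085 and was called in 1, DESeq2. Over single cells the median, as plain CPM, was 193 in WT ICM and 189 in WT EPI. The WT embryos stood apart between the stages and the MUT embryos did not. The difference between the genotypes in the change to EPI did not pass in edgeR (adjusted p = 0.240), while DESeq2 called it.

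Noc2l gave 40.6, 23.4, 44.9, 43.6 and 164 CPM in WT ICM and 57.2, 67.1, 18.6, 14.3 and 14.7 in MUT ICM. WT EPI gave 21.7, 19.8 and 21.8 CPM, below WT ICM and below MUT EPI with 34.05, 74.5, 57.6 and 24.9. Over single cells the Noc2l median, as plain CPM, went the other way, at 4.55 in WT ICM and 19.5 in WT EPI. The direction between these stages thus depends on how cells are combined. PrE gave 30.6, 20.3 and 78.3 CPM in WT and 35.3, 37.6, 29.5 and 28.1 in MUT. Pes1 gave 263, 369, 329.6, 168 and 252 CPM in WT ICM and 157, 189.9, 181, 117 and 366 in MUT ICM. Its EPI values were 190.3, 199 and 204 CPM in WT and 286, 179.8, 206 and 249 in MUT. MUT PrE, at 145, 161, 155 and 165 CPM, lay below MUT EPI, while WT PrE at 154, 202 and 224 overlapped WT EPI. Bop1, Wdr12, Nop2, Ddx18 and Gnl3 were not called, with log2 differences between -1.26 and 0.40 in the 4 stage comparisons.

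EPI and PrE came from the same embryos at E3.75. Between them no member was called in WT (0.0314% of all genes) or in MUT (1.65% of all genes) by edgeR. DESeq2 called 2 and 4 members, all higher in EPI, beside 8.35% and 10.5% of all genes. An unadjusted p under 0.05 was held by 2 members in WT (5.71%, against 9.35% of all genes) and 5 in MUT (14.3%, against 10.2%). The median log2 difference, EPI over PrE, was 0.11 in WT and 0.14 in MUT, beside 0.03 and 0.02 over all genes. C1qbp was higher in EPI in every embryo, by 0.65 in WT (SE 0.15; adjusted p = 0.233) and 0.53 in MUT (SE 0.15; adjusted p = 0.130). Wdr43 differed by 0.48 in WT (SE 0.16; adjusted p = 0.384) and Ubtf by 0.59 in MUT (SE 0.19; adjusted p = 0.225). With the embryo as a block, again 0 members were called in either genotype. Over all genes the block moved the called count from 4 to 0 in WT and from 177 to 74 in MUT.

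Between genotypes no gene was called by edgeR in the fits without further terms: 0% in ICM, 0% in EPI and 0% in PrE, members included. Stat3 itself was not called, at -3.50, -3.93 and -2.86 (edgeR adjusted p of 0.684, 0.972 and 0.737). A lack of calls in these fits thus does not show a lack of difference. With embryo sex in the model, 217 genes were called in PrE (1.84% of all genes, 200 of them higher in MUT), Ddx21 and Heatr1 among them, both higher in MUT. In ICM, edgeR called 3 genes without the low-count filter. It called 1 each with thinned cells, without low-quality cells and without MUT ICM embryo 23, and no member was among any of these. At E3.75 all 4 MUT embryos and 1 of 3 WT embryos were male by their counts. At an unadjusted p under 0.05 there were 5 members in ICM (14.3%, against 6.64% of all genes), 1 in EPI (2.86%, against 4.63%) and 3 in PrE (8.57%, against 4.63%). DESeq2 called 1, 0 and 0 members, beside 3.34%, 4.05% and 2.88% of all genes. In ICM the median of the members, MUT over WT, was -0.18 with 24 of 35 below 0, beside -0.05 over all genes. C1qbp had the smallest p in ICM, at 2.09 (SE 0.48; adjusted p = 0.435), and was the member DESeq2 called there (adjusted p = 0.00328). Nop16 differed by -1.12 (SE 0.37; adjusted p = 0.727) and was the 1 of 35 members whose ICM embryos did not overlap, against 1.55% of all genes. In EPI, Noc2l differed by 1.18 (SE 0.50; adjusted p = 0.9999) and Polr1b by -0.66 (SE 0.33; adjusted p = 0.9999). At E3.75 the medians were 0.11 in EPI and 0.03 in PrE, beside 0.04 and 0.03 over all genes. For C1qbp within title letter A, WT EPI embryo 3 had 721 CPM and MUT embryos 4 and 5 had 704 and 624.

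Whether the change between stages itself differed with genotype was tested as an interaction. No gene was called for EPI (0% of 15756 genes), for PrE (0% of 15614) or for the difference between the lineages (0% of 14220) by edgeR. At an unadjusted p under 0.05 there were 5, 3 and 0 members (14.3%, 8.57% and 0%), against 9.25%, 9.20% and 5.51% of all genes. DESeq2 called 2, 1 and 0 members, beside 3.97%, 3.80% and 2.64% of all genes. C1qbp had the smallest p in both stage interactions, at -2.21 (SE 0.56; adjusted p = 0.230) for EPI and -2.07 (SE 0.57; adjusted p = 0.354) for PrE. Next came Nop16 for EPI, at 1.52 (SE 0.47; adjusted p = 0.240), and Nop56 for PrE, at 1.25 (SE 0.43; adjusted p = 0.407). For the lineages they were Noc2l, at 1.58 (SE 0.76; adjusted p = 0.912), and Pes1, at 0.51 (SE 0.28; adjusted p = 0.948). The medians of the members were 0.28, 0.24 and -0.02, beside -0.10, 0.04 and -0.08 over all genes.

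Summed over the 35 genes, the level was 9089 to 15880 CPM in WT ICM and 8388 to 15756 in MUT ICM. It was 10480 to 10886 in WT EPI, 10128 to 12220 in MUT EPI, 8724 to 10090 in WT PrE and 9106 to 10953 in MUT PrE. Each group at E3.75 overlapped the ICM of its genotype. The embryos at E3.5 were the more uneven. The coefficient of variation between embryos had a median over the members of 34.8% in WT ICM and 46.8% in MUT ICM, against 10.95% in WT EPI, 28.8% in MUT EPI, 22.1% in WT PrE and 15.7% in MUT PrE. It was higher in WT ICM than in WT EPI in 34 of 35 genes and than in WT PrE in 28, and higher in MUT ICM than in MUT EPI in 25 and than in MUT PrE in 32. Over the 11011 genes tested in all 4 stage comparisons the medians were 70.3% and 77.5% at E3.5 and 33.9%, 66.8%, 61.1% and 52.99% at E3.75, in the same order. Depth per cell and letters differ between the stages as well, and their part in this was not tested.

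**Figure D4:**
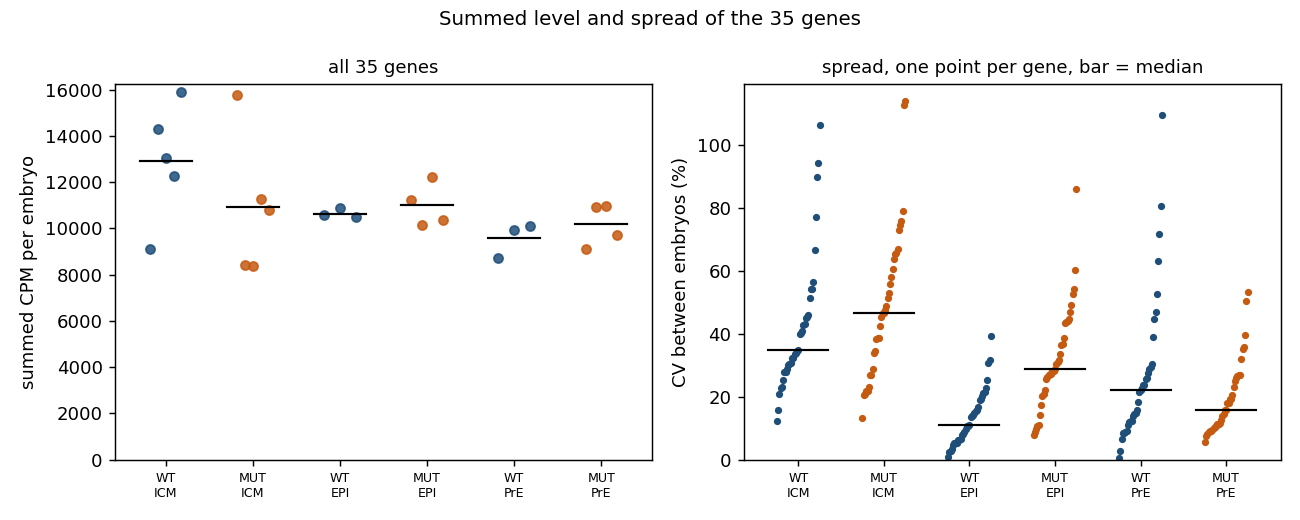
Left, summed CPM of the 35 genes, 1 point per embryo with the mean as a bar, axis from 0; right, coefficient of variation between embryos, 1 point per gene with the median as a bar. The spread is widest in the ICM groups, with medians of 34.8% and 46.8%.

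Per kilobase of exon, Npm1 was the highest member in all 6 groups (987 to 1539 CPM per kb) and Nhp2 the second (330 to 619), and Utp20 was the lowest in all 6 (2.14 to 4.87). C1qbp stood at rank 24 in WT ICM (22.7 CPM per kb), rank 7 in MUT ICM (96.4), rank 3 in WT EPI (273) and rank 4 in WT PrE (174). Lengths are those of all annotated exons, and the library method, which decides whether length matters, is not stated in the labels.

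Of the other genes of ribosome production, 108 were tested: 9 of RNA polymerase I, 41 of the small subunit, 48 of the large subunit and 10 of snoRNP assembly. None was called in any stage comparison by edgeR. At an unadjusted p under 0.05 there were 29 (26.9%) in WT EPI, 6 (5.56%) in MUT EPI, 24 (22.2%) in WT PrE and 8 (7.41%) in MUT PrE, against 14.1%, 8.08%, 14.8% and 9.46% of all genes. DESeq2 called 18 (16.7%), 3 (2.78%), 10 (9.26%) and 5 (4.63%), against 12.1%, 7.35%, 12.2% and 8.23% of all genes. From WT ICM, 32 of 108 lay above 0 to EPI and 31 to PrE, with medians of -0.38 and -0.41, and from MUT ICM 55 and 51, with medians of 0.03 and -0.03. Nmd3, the export adaptor of the large subunit, had the smallest p of its list: 425 to 1063 CPM in WT ICM against 150 to 174 in WT EPI (-1.94, SE 0.34; adjusted p = 0.0535). Imp3, a protein of the U3 particle, held 6.94 to 32.8 CPM in WT ICM and 89.5 to 116 in WT EPI (2.49, SE 0.51; adjusted p = 0.0720), and MUT ICM held 38.9 to 273. The nearest of the other lists were Polr1c, shared by RNA polymerases I and III (-1.32 to WT PrE; adjusted p = 0.127), Snu13, which binds box C/D RNAs (-1.02 to WT PrE; adjusted p = 0.0925), and Gas5, a snoRNA host gene (-1.71 to WT EPI; adjusted p = 0.152). None of the 10 host genes was called by edgeR.

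Myc and Mycn encode transcription factors known to drive many of these genes. Myc gave 72.6, 21.8, 45.2, 29.8 and 36.1 CPM in WT ICM and 401, 157 and 239 in WT EPI, without overlap, but missed the threshold (2.69, SE 0.46; adjusted p = 0.0535). WT PrE gave 54.5, 36.0 and 14.003 CPM. MUT EPI gave 76.9, 0.572 (a single cell), 40.1 and 118 CPM, all below WT EPI, a genotype difference of -2.18 (SE 1.12; adjusted p = 0.9999). MUT ICM held 4.93 to 59.2 CPM of Myc and MUT PrE 0.175 to 35.4. The change from MUT ICM to EPI was 1.03 (edgeR adjusted p = 0.908). The genotype difference of the change to EPI, -1.63, did not pass (edgeR adjusted p = 0.799). Mycn gave 91.7, 9.77, 2.09, 22.6 and 25.1 CPM in WT ICM and 109.6, 118 and 199 in WT EPI (2.21, SE 0.91; adjusted p = 0.312). In MUT it held 0.289 to 30.3 CPM in ICM, 18.6 to 169 in EPI (3.40; adjusted p = 0.262) and 42.9 to 408 in PrE (4.13; adjusted p = 0.142). Of the MYC network genes, 9 to 11 tested in each of the 4 stage comparisons, none was called by edgeR.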

How the data were processed

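Single-cell RNA-seq counts, whole numbers per gene and cell, were used as the authors deposited them. The submitters' processing notes name STAR, HTSeq and mm10, without versions; library method, strand setting and doublet removal are not stated in the labels. Stage, embryo and letter came from the sample titles, and genotype and lineage from the other labels; the number that follows the genotype in a title was read as the embryo's. Gene names came from GENCODE vM21, where 259 rows without a match held 0.0101% of counts. All 171 cells were kept (163822 to 25095390 counts each) and summed to 24 sums of embryo and lineage, of 8117787 to 122331780 counts. PCR copies are not independent molecules. P-values set a group difference against the spread between the sums of different embryos, some of which hold 1 cell. The main fits of EPI against PrE do not pair the sums of the same embryo.

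For each comparison only its own samples entered an edgeR 4.0.16 quasi-likelihood fit in R 4.3.3, with TMM, filterByExpr at a minimum count of 10, robust estimation, Benjamini-Hochberg adjustment over all genes tested and a threshold of 0.05. All 35 members passed the filter in all 12 comparisons. The SE is the log2 fold change over the root of F and restates the test. The fit was tested on simulated data. The members and lists were chosen with earlier results of these data known. Values in every embryo are given for members past the threshold (up to 6 in a stage comparison and 4 in another) or else the 2 with the smallest p; each other list gives the gene with the smallest p, and Stat3, Myc and Mycn are always given. EPI and PrE of 1 embryo number share an animal, read from the titles; over 11011 genes their deviations from the group means correlated at 0.042 to 0.161. Alternatives were DESeq2 1.42.0, limma-trend 3.58.1, RLE scaling, no filter, cells thinned to 1000000 counts (11 left out), no low-quality cells (9 left out), no sums of 1 cell, sex, letter or embryo block as a term, and each embryo left out. Python 3.11.15, pandas 2.3.3, numpy 2.4.6 and matplotlib 3.10.9 were used.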

Additional observations from a re-analysis of the deposited data

Results flagged for a closer look

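Of 52 groups of 4 or 5 embryos tested among the 13 members named by rule, 4 held 1 embryo far from the rest of its group by Dixon's gap ratio, where chance flags about 1 in 20 groups. Noc2l was at 164 CPM in WT ICM embryo 22, while the others lay at 23.4 to 44.9. Wdr43 was at 864 CPM in the same embryo, against 217 to 368. Ubtf was at 258 CPM in WT ICM embryo 20, against 114 to 147. Polr1b was at 53.6 CPM in MUT EPI embryo 2, a single cell, against 101 to 108.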

How the results depend on the processing

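The C1qbp call held in 14 of 15 alternatives to EPI (log2 fold change 3.18 to 4.94) and in 13 of 16 to PrE (2.46 to 4.22), the lost calls being those in the report and, for PrE, the fit without sums of 1 cell (0 members called). Members called from WT ICM to EPI were 5 with DESeq2, 9 with limma-trend, 2 with thinned cells and 2 without the low-count filter, and 0 to 2 when 1 embryo was left out; to PrE they were 3, 5, 2 and 2, and 0 to 1. The second member with thinned cells or no filter was Nop56. In MUT, DESeq2 called 1 member to EPI and 1 to PrE, and limma-trend 2 and 1. The fit with sex called Heatr1 to MUT PrE, where all sums are male. It rests on embryo 23, the only male of MUT ICM, with 0.651 CPM of Heatr1. Elsewhere DESeq2 called 2 (lineage, WT), 4 (lineage, MUT), 1 (genotype, ICM), 2 (stage interaction, EPI) and 1 (stage interaction, PrE). Between genotypes in PrE the fit with sex called Heatr1 and Ddx21 higher in MUT, against the single male WT cell of embryo 3. The cause of the other differences was not tested.

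The member median moved past its spread between embryos as follows. With limma-trend it was 0.85 (WT EPI), 1.14 (MUT EPI), 0.65 (WT PrE), 0.77 (MUT PrE), -0.065 (genotype, ICM), and 0.12 and 0.019 (stage interactions, EPI and PrE); the sign turned for Ltv1 to WT EPI (0.078) and PrE (0.55) and Nop16 to WT PrE (0.084), none called. With sex in the model it was 0.60 (MUT EPI), 0.35 (MUT PrE) and -0.29 (genotype, ICM). The MUT EPI and MUT PrE values rest on embryo 23, the only male of MUT ICM. With thinned cells it was -0.22 (MUT PrE), and 0.10 and 0.053 in the stage interactions. DESeq2 gave -0.077 and RLE scaling -0.076 in ICM between genotypes and each 0.10 in the PrE interaction. Without sums of 1 cell the EPI interaction was 0.41. With 1 embryo left out the ranges were -0.065 to 0.14 (MUT PrE), -0.38 to -0.10 (genotype, ICM), 0.16 to 0.50 and 0.14 to 0.40 (stage interactions). In the paired fits with the embryo as a block the lineage median was 0.12 in WT and 0.10 in MUT, and no member's call changed.

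Over all genes the called counts ranged more than the members': from 0 to 4048 (WT EPI, 43 as reported), 0 to 991 (MUT EPI, 8), 0 to 2071 (WT PrE, 46), 14 to 1203 (MUT PrE, 61), 0 to 1130 and 71 to 1301 (lineage, 4 and 177), and 0 to 499, 557 and 361 (genotype in ICM, EPI and PrE, 0 each), with DESeq2 or limma-trend at the top. In the interactions they reached 632, 596 and 401, from 0.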
